A study of Xenopus laevis with 22 samples.

Results

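Embryonic ectoderm of Xenopus laevis that had been given Multicilin was compared between 3 and 6 h after Multicilin was switched on, in 6 of the 18 RNA-seq libraries of a series of 22 samples. The libraries were chosen by their labels alone, 3 labelled 3 h and 3 labelled 6 h. Each held RNA from 20 animal caps, the pieces of ectoderm above the blastocoel, cut at stage 10 and cultured in saline. All caps of both groups carried RNA for MCIDAS, the gene of Multicilin, fused to the human glucocorticoid receptor, and 20 µM dexamethasone was added at mid-stage 11, which lets such a fusion act. Culture at 22 °C brought the 3 h caps to about stage 13 and the 6 h caps to about stage 16. No cap of these 6 libraries lacked Multicilin or the hormone. Every change below thus includes the normal development of the ectoderm over the same 3 h. Replicates are called biological by the submitters, but nothing states that they came from separate clutches, so p-values measure the spread between these libraries.

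Multiciliated cells of the frog epidermis carry many motile cilia that drive fluid over the embryo. Multicilin is a coiled-coil protein that joins E2f4 or E2f5 and their partner Dp at promoters of centriole genes, while Foxj1 and Rfx proteins act on genes of the motile cilium. Such cells leave the cell cycle, build centrioles around deuterosomes, dock them at the surface as basal bodies and then grow axonemes, whose beating is powered by dynein arms. The same ectoderm also forms goblet cells, ionocytes and small secretory cells, which surround the multiciliated cells.

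The 6 libraries held 12203285 to 24253470 estimated fragments over 24383 targets (transcript models), of which 68.3 to 69.6% were assigned to a single target. Targets carry the symbol of their closest human gene, so targets were summed to 13472 symbols, and 7887 symbols join more than 1 target. Levels are counts scaled to library size (CPM) after TMM scaling and are listed in the order of replicates 1, 2 and 3. Fold changes are log2 of 6 h over 3 h with their standard error (SE), and a symbol was called at an edgeR adjusted p under 0.05. The main fit did not pair libraries by replicate number. The first principal component held 80.9% of the variance and separated the times, and the second, with 11.1%, separated the libraries numbered 1 at both times from those numbered 2 and 3. Defining markers of ectoderm were present: keratins krt8, krt12 and krt19, the cadherin cdh1, epcam and the ectodermal factors tfap2a, dlx3 and grhl3 lay between 31.8 and 15600 TPM, the deposited length-corrected level. The muscle and mesoderm markers myod1, actc1 and brachyury lay between 0.133 and 5.92 TPM, and the neuronal markers tubb3 and neurog2 between 0 and 1.35 TPM. A wider list of 46 neural symbols held 0.306 ± 0.0462% of TPM at 3 h and 0.751 ± 0.0711% at 6 h (mean ± SD, n = 3 each). The myeloid marker cebpe reached at most 0.199 TPM, while the blood cell factor spib stood at 143 to 205 TPM in all 6 libraries. In bulk RNA, fewer cells of a type and less RNA per cell cannot be told apart.

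A large share of the transcriptome shifted within these 3 h. Of 11562 symbols and unnamed targets tested, edgeR called 6823, which is 59.0%. Among them 3533 were higher at 6 h (30.6%) and 3290 were lower (28.5%). Counting symbols whose 3 libraries at 6 h all lay above the 3 at 3 h gave 34.0%, and all below gave 31.8%. The larger changes were mostly rises: 2193 symbols rose at least 2-fold (19.0% of those tested) and 1645 fell at least 2-fold (14.2%), while at least 16-fold (4 on the log2 scale) there were 137 rises and 14 falls. The median log2 fold change was 1.25 among called rises and -1.0001 among called falls. Symbols that rose held 26.3 ± 1.16% of all deposited TPM at 3 h and 51.0 ± 1.19% at 6 h (mean ± SD, n = 3 and 3), and symbols that fell held 34.5 ± 0.185% and 15.6 ± 0.826%. These sets were picked by their change in the same libraries, so the direction of each shift in share follows from the choice. The balance depends on the scaling: with library size alone in place of TMM, the median over all symbols moved from 0.03 to -0.25, and the share of calls that were higher went from 51.8 to 36.6% (2565 higher, 4439 lower).

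**Figure D1:**
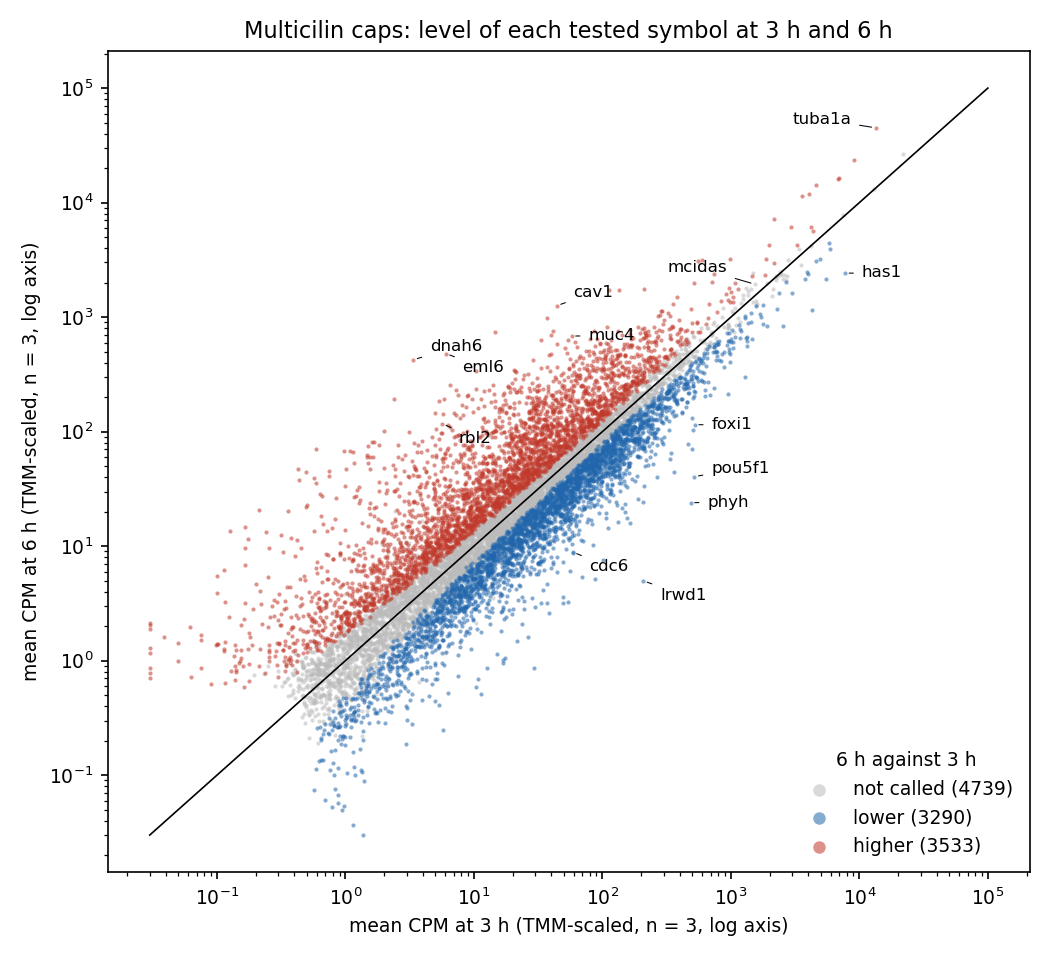
Mean level of each of the 11562 symbols tested at 3 h (horizontal) and 6 h (vertical), in TMM-scaled CPM on log axes, n = 3 libraries each, with means under 0.03 drawn at 0.03. Red points were called higher (3533), blue points lower (3290) and grey points were not called (4739), and the black line marks equal levels. The median log2 fold change was 1.25 among red points and -1.0001 among blue points. Labelled rises include dnah6, cav1 and muc4, and labelled falls include lrwd1, phyh and pou5f1.

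The largest rises among symbols already detected at 3 h included a pair of axonemal dynein genes and a microtubule-binding protein gene. The inner arm dynein heavy chain dnah6 stood at 3.02, 5.26 and 1.84 CPM at 3 h and 479, 466 and 327 CPM at 6 h (log2 fold change 6.92 ± 0.37, adjusted p = 5.1e-06), and its relative dnah2 at 18.3, 17.2 and 8.45 CPM at 3 h and 911, 771 and 556 CPM at 6 h (log2 fold change 5.65 ± 0.34, adjusted p = 6.7e-06). The microtubule-binding protein gene eml6 went from 5.35, 7.56 and 5.22 CPM to 456, 534 and 453 CPM (log2 fold change 6.30 ± 0.20, adjusted p = 9.9e-07). The 6 h libraries lay far above the 3 h libraries in all 3 genes, with the lowest dnah6 and dnah2 values in replicate 3 at both times. The basal body orientation gene ccdc176 went from 1.31, 2.03 and 1.15 CPM to 69.1, 63.8 and 93.7 CPM and the tubulin glycylase gene ttll3 from 2.04, 2.46 and 0.999 CPM to 119.5, 66.1 and 42.1 CPM, with log2 fold changes of 5.62 ± 0.27 and 5.30 ± 0.46. Of the 15 largest rises, the others were fam81b, lrrc18, c17orf105, the cation channel trpm2, the adenylate kinase ak5, c8orf34, ttc29, the kinase mapk4, the nuclear envelope linker syne1 and the doublecortin-domain gene dcdc2b, with log2 fold changes from 5.24 to 5.85.

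A smaller set was close to silent at 3 h. Among named symbols that were called without overlap, 12 rose from a mean under 0.5 CPM to at least 10 CPM, and 0 fell in the opposite sense. The scaffold protein gene frmpd2 went from 0.437, 0.312 and 0.538 CPM to 48.5, 47.6 and 45.1 CPM and the small muscle protein gene smpx from 0.509, 0.585 and 0.384 CPM to 44.3, 38.5 and 51.0 CPM. The 6 h libraries were close to each other in both genes. The homeobox gene hoxa2 went from 0.255, 0.234 and 0.23 CPM to 17.8, 13.1 and 9.19 CPM, and the kinesin gene kif19, whose product limits cilium length in mice, from 0.327, 0.624 and 0 CPM to 13.0, 15.7 and 9.25 CPM. The 10 highest at 6 h also included the Notch-like receptor gene dner, ccdc153, c6orf118, rgs22 and lrrd1, the last at 39.6, 9.35 and 11.9 CPM at 6 h, with replicate 1 apart from the rest. The starting counts of these genes were few, so the sizes of their folds are imprecise.

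The steepest falls among symbols with a mean of at least 10 CPM at 3 h and at least 1 CPM at 6 h included genes of DNA replication and of early patterning. The origin recognition partner lrwd1 went from 182, 182 and 260.2 CPM to 4.54, 4.85 and 5.57 CPM (log2 fold change -5.38 ± 0.21, adjusted p = 2.3e-06), a 41.7-fold fall that all 3 libraries shared. The replication fork gene donson went from 62.2, 99.3 and 102 CPM to 3.40, 7.55 and 4.53 CPM (log2 fold change -4.08 ± 0.33, adjusted p = 1.9e-05), and the peroxisomal hydroxylase gene phyh from 703, 233 and 521 CPM to 25.1, 12.0 and 34.8 CPM (log2 fold change -4.34 ± 0.53, adjusted p = 0.00034), with replicate 2 lowest at both times. The progenitor factor listed as pou5f1, which in frogs stands for Pou5f3 relatives, stood at 521, 418 and 621 CPM at 3 h and 40.7, 36.4 and 44.2 CPM at 6 h. The Nodal-pathway factor foxh1 went from 35.7, 35.6 and 44.3 CPM to 0.895, 4.15 and 2.82 CPM (log2 fold change -3.86 ± 0.43, adjusted p = 0.00011) and the TGF-beta repressor skil from 84.2, 66.4 and 57.8 CPM to 4.06, 8.95 and 3.25 CPM (log2 fold change -3.67 ± 0.36, adjusted p = 6e-05). The homeobox genes dlx2 and lhx5 and the cut-homeobox gene onecut2 fell by 3.74, 3.56 and 4.01 on the log2 scale. The 15 largest falls also included nckap5l, the TGF-beta-binding vasn, rgcc, the heparan sulfotransferase hs3st1 and rassf9, from -3.70 to -4.03.

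**Figure D2:**
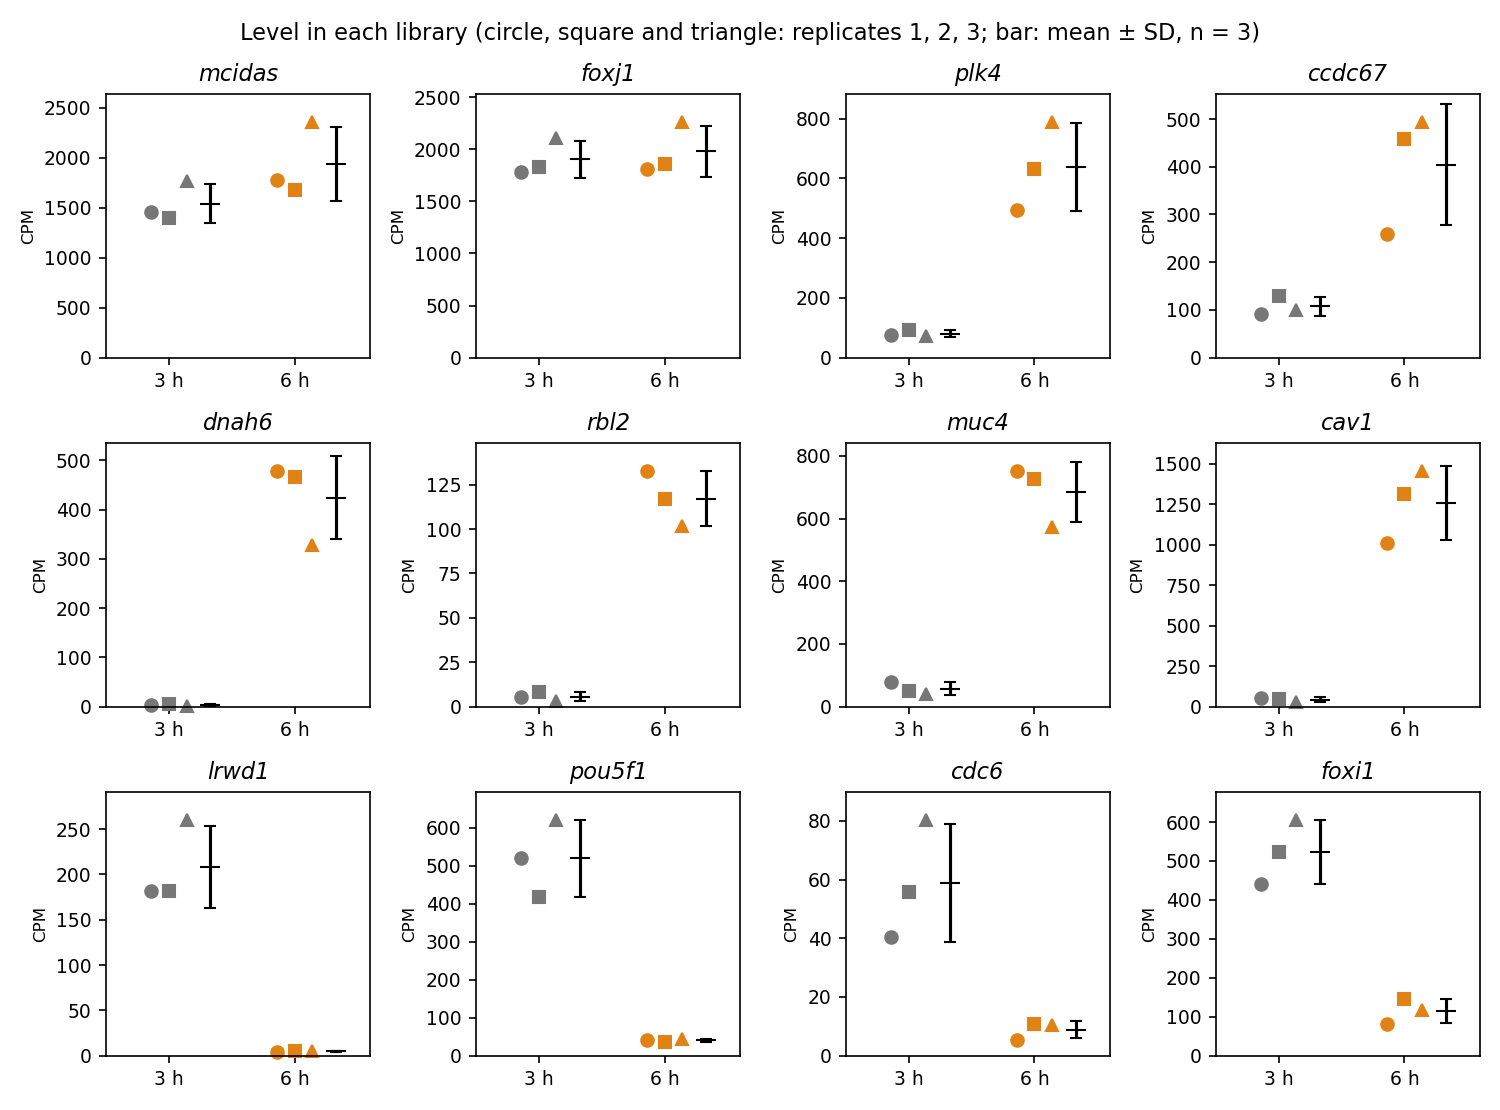
Level in each library, in TMM-scaled CPM on axes that start at 0, for 12 symbols at 3 h (grey) and 6 h (orange); circle, square and triangle are replicates 1, 2 and 3, and the bar gives mean ± SD, n = 3. mcidas and foxj1 overlap between the times, plk4, ccdc67, dnah6, rbl2, muc4 and cav1 are higher in all 3 libraries at 6 h, and lrwd1, pou5f1, cdc6 and foxi1 are lower in all 3.

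By share of all transcripts, the 10 largest gains included 4 tubulin and 4 keratin symbols, and the 10 largest losses were mostly RNA-binding and chromatin proteins. On the per-length TPM scale, which allows genes to be compared, the largest gain was in the alpha-tubulin symbol tuba1a, at 19286 ± 931 TPM at 3 h and 45696 ± 2639.9 TPM at 6 h (mean ± SD, n = 3 each), followed by tuba1b at 8508 ± 531 TPM at 3 h and 21136 ± 585 TPM at 6 h. The keratin symbols krt12, krt19, krt6a and krt75 were next, with krt12 at 5007 ± 486 TPM at 3 h and 12381 ± 1031 TPM at 6 h. The membrane protein gene cav1 stood out among them by its fold, going from 55.2, 48.8 and 28.6 CPM to 1009, 1312 and 1456 CPM (log2 fold change 4.83 ± 0.28, adjusted p = 5.9e-06), while beta-tubulins tubb2b and tubb4b and the fatty acid elongase elovl7 rose 3.27-, 5.26- and 3.22-fold in CPM. The losses of the hyaluronan synthase has1, at 6103 ± 737 TPM at 3 h and 1590.1 ± 483 TPM at 6 h, and the arginine methyltransferase prmt1, at 6744 ± 381 TPM at 3 h and 2234 ± 354 TPM at 6 h, were the largest and nearly equal. The other losses were the histone chaperones anp32a and anp32b, the chromatin proteins hmgb2, hmgb3 and h3f3a, the splicing factors srsf2 and srsf7, and hnrnpa1, with folds of 1.31 to 4.26 in CPM. The call of hnrnpa1 was lost without the 6 h library of replicate 1 (adjusted p = 0.052) and in its most abundant target alone (-0.16, adjusted p = 0.28). In a fit with 16 RNA libraries, tuba1b, krt19 and tubb2b kept their folds but lost their calls (adjusted p = 0.33, 0.49 and 0.34). That fit adds libraries of other groups. Of these, replicate 1 at 3 h and replicate 3 at 9 h with dominant-negative E2f4 were scored on 35532 targets in place of 24383.

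The master regulators of the multiciliated program were already high at 3 h and several did not pass the test. Transcripts of mcidas, in which the injected RNA and the embryo's own cannot be told apart, stood at 1454, 1400.5 and 1765 CPM at 3 h and 1772, 1678 and 2357 CPM at 6 h (log2 fold change 0.33 ± 0.16, adjusted p = 0.11, not called). On this scale the level was higher at 6 h within each of the 3 replicate numbers, and it passed with replicate number as a block (adjusted p = 0.0034). In deposited TPM it went from 3039, 2831 and 3195 to 2969, 2872 and 3458, so replicate 1 was lower at 6 h. The lowest log2 fold change of mcidas among the alternatives was 0.05. The forkhead regulator of motile cilia foxj1 stood at 1778, 1826 and 2105 CPM at 3 h and 1811, 1859.9 and 2262 CPM at 6 h (log2 fold change 0.06 ± 0.13, adjusted p = 0.73, not called). The groups overlapped in mcidas and in foxj1. The cyclin-like ccno, needed for centriole amplification, stood at 1116, 1253 and 1578 CPM at 3 h and 1585, 1619 and 2223 CPM at 6 h and did not reach the threshold (adjusted p = 0.055), although its groups did not overlap. It passed with DESeq2 (0.048), with uniquely assigned counts (0.042), with replicate number as a block (adjusted p = 0.00052), without replicate 3 at 3 h (0.028) and without replicate 1 at 6 h (0.043). Of the 21 regulators tested, 6 were called higher (28.6%) and 4 lower (19.0%), against 30.6 and 28.5% of all symbols. The median was 0.16, and -0.12 with library size alone (-0.25 over all symbols). With the block the counts were 10 and 6. The early factors myb and rfx2 fell by 0.62 and 0.46 on the log2 scale, and foxn4 rose by 0.70. Steeper rises came in rfx3, a relative of rfx2, from 0.691, 0.702 and 0.307 CPM to 17.2, 16.6 and 6.98 CPM. They also came in cdc20b, a gene of deuterosome function, from 31.5, 68.8 and 66.1 CPM to 169.8, 249.6 and 268 CPM, and in the kinase-like ulk4, from 9.61, 10.53 and 8.68 CPM to 77.5, 72.5 and 74.7 CPM.

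Centriole genes rose broadly. Of 70 tested members of the centriole and deuterosome list, 55 were called higher (78.6%) and 9 lower (12.9%), against 30.6 and 28.5% of all symbols. The median log2 fold change was 1.59 against 0.03 over all symbols, and the list's share of TPM went from 0.430 ± 0.0247% to 1.07 ± 0.0800%. The kinase that starts centriole assembly, plk4, stood at 77.3, 92.4 and 72.5 CPM at 3 h and 496, 633 and 789.5 CPM at 6 h (log2 fold change 2.98 ± 0.20, adjusted p = 8.9e-06), and the deuterosome gene ccdc67 at 92.2, 129.8 and 101 CPM at 3 h and 259, 459 and 494 CPM at 6 h (log2 fold change 1.91 ± 0.25, adjusted p = 0.00029). For both, replicate 1 was the lowest at 6 h, still above every 3 h library. The cartwheel-linked stil went from 176, 194 and 185 CPM to 343, 475 and 604 CPM, whereas sass6, the cartwheel protein itself, stood at 219, 216 and 263 CPM at 3 h and 265, 266 and 331 CPM at 6 h and was not called (adjusted p = 0.096, and 0.0099 with the block). The largest rise of the list was in kiaa0586, the ciliogenesis gene also called Talpid3, from 4.73, 3.86 and 3.23 CPM to 73.6, 83.8 and 89.0 CPM (log2 fold change 4.36 ± 0.18, adjusted p = 3.3e-06). The 9 lower members included cep63, the relative of ccdc67 that recruits cep152 to parent centrioles, from 6.84, 6.82 and 7.53 CPM to 2.51, 1.75 and 1.90 CPM (log2 fold change -1.78 ± 0.21, adjusted p = 0.00017), the centrosome scaffold cep192 (-1.62 ± 0.18) and ninein-like ninl (-1.76 ± 0.18). Augmin subunits, which branch spindle microtubules, were also among them, with haus3, haus6 and haus7 falling by 1.13, 0.87 and 0.74.

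Motile cilium genes rose almost without exception. Over all symbols tested 30.6% were called higher, and 19.0% were called higher by at least 2-fold. All 44 tested axonemal dyneins and dynein assembly factors were called higher, each at least 2-fold, with a median of 2.26. So were 68 of 69 symbols of radial spokes, the central pair and axonemal microtubules, with a median of 2.50. The exception was fam92a1, at 26.7, 35.8 and 37.8 CPM at 3 h and 23.2, 28.1 and 33.7 CPM at 6 h, which was called lower with library size alone (adjusted p = 0.034). The outer arm heavy chain dnah9 went from 290.4, 243 and 99.5 CPM to 1829, 2014 and 1393 CPM and the intermediate chain dnai1 from 108, 122 and 104 CPM to 533, 483 and 721 CPM, with log2 fold changes of 3.05 ± 0.37 and 2.38 ± 0.17. The assembly factor dnaaf2 rose least of the list, from 243, 237 and 201 CPM to 608, 482 and 561 CPM (1.28 ± 0.14). The central pair gene hydin went from 37.8, 62.7 and 23.0 CPM to 687, 882 and 699.6 CPM and its partner in that structure spag17 from 11.5, 14.3 and 5.61 CPM to 372, 337 and 309 CPM. In dnah9, hydin and spag17 replicate 3 was the lowest at 3 h. Tektin tekt2, a filament protein of doublet microtubules, went from 90.4, 101 and 67.2 CPM to 796, 597 and 890.3 CPM. The radial spoke and axoneme list, which includes tubulins, held 3.26 ± 0.119% of TPM at 3 h and 8.91 ± 0.470% at 6 h. The tubulin family, which overlaps this list, held 3.37 ± 0.0932% and 7.94 ± 0.354%. The list's share thus cannot be read as that of radial spoke and central pair genes.

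Genes of transport into the cilium rose as well. Of 50 intraflagellar transport and BBSome genes, 46 were called higher (92%) and 1 lower (2%), against 30.6 and 28.5% of all symbols. The median was 1.79. The core particle gene ift88 went from 67.5, 78.8 and 66.9 CPM to 432, 376 and 508 CPM (log2 fold change 2.62 ± 0.15, adjusted p = 6.1e-06), and kifap3, the accessory subunit of the kinesin-II motor, from 9.35, 7.68 and 5.53 CPM to 106, 70.1 and 106 CPM (log2 fold change 3.62 ± 0.25, adjusted p = 1e-05), the largest rise of the list. The BBSome subunit bbs9 rose from single-digit levels, from 7.46, 6.00 and 4.30 CPM to 60.5, 63.3 and 68.4 CPM (3.41 ± 0.21). The lower member was mkks, a chaperonin-like BBSome assembly factor, from 28.7, 30.2 and 36.3 CPM to 13.0, 13.7 and 14.8 CPM (log2 fold change -1.19 ± 0.16, adjusted p = 0.00027). At the gate of the cilium, 21 of 23 transition zone genes were called higher and 0 lower (1 lower without replicate 3 at 3 h), with a median of 1.61, led by rpgrip1l, from 16.7, 23.0 and 13.98 CPM to 146, 148 and 150.1 CPM (3.04 ± 0.19). Among families grouped by name after the levels had been seen, 8 of 9 Nek kinases and 12 of 13 enzymes that modify tubulin tails (ttll and agbl) were higher, against 30.6% of all symbols. Among 13 tubulins 9 were higher and 1, tubb, was lower (-1.11 ± 0.17).

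Of 34 planar polarity and basal body docking genes, 12 were called higher (35.3%) and 11 lower (32.4%), close to the 30.6 and 28.5% of all symbols tested, with a median of -0.05. With library size alone 9 were higher and 14 lower. The planar polarity effectors fuz, intu and wdpcp, needed for docking and for ciliary transport, went from 6.59, 7.64 and 5.38 CPM to 32.5, 35.6 and 35.0 CPM, from 40.3, 41.2 and 38.4 CPM to 105, 115 and 138 CPM and from 4.62, 5.30 and 2.84 CPM to 41.9, 44.6 and 50.7 CPM. The membrane linker ezr went from 7.53, 9.86 and 10.8 CPM to 51.0, 77.9 and 79.4 CPM (log2 fold change 2.89 ± 0.22, adjusted p = 1.6e-05). Of the core polarity genes, vangl2 went from 189, 205 and 223 CPM to 79.3, 123 and 122 CPM (log2 fold change -0.93 ± 0.18, adjusted p = 0.0025) and its relative vangl1 from 102, 113 and 98.6 CPM to 195, 184 and 207 CPM (log2 fold change 0.90 ± 0.12, adjusted p = 0.0003), so the pair moved in opposite directions. The receptors fzd3 and fzd6 fell by 0.93 and 1.02 on the log2 scale.

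**Figure D3:**
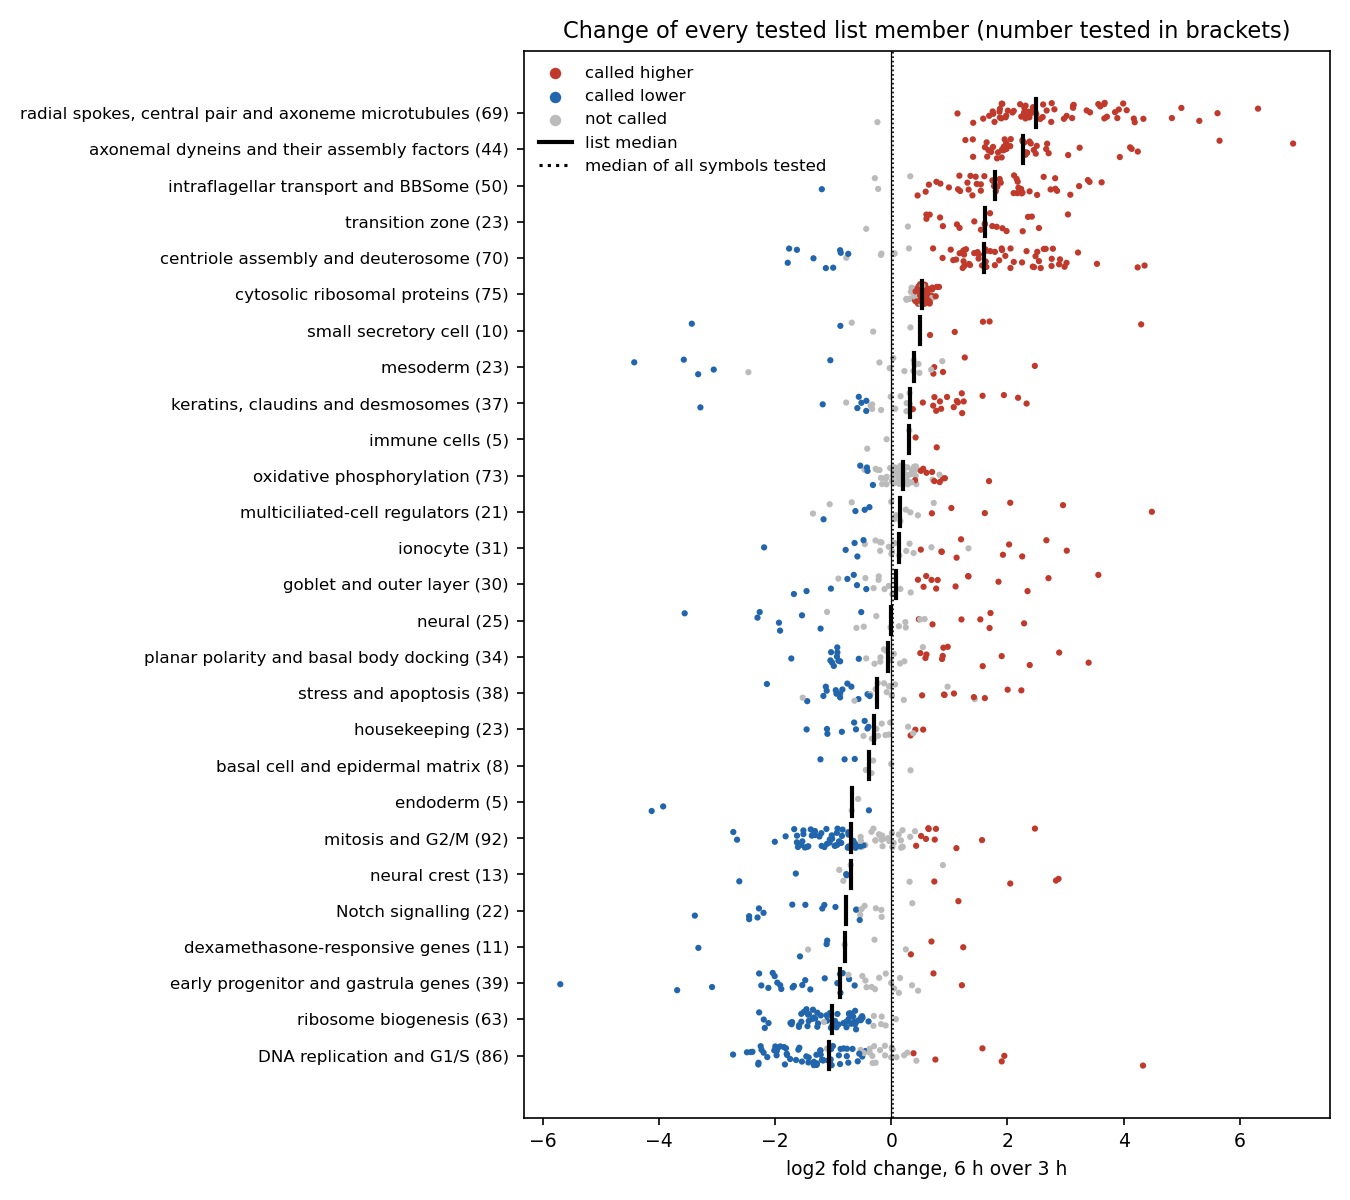
Log2 fold change (6 h over 3 h) of every tested member of 27 gene lists, 1 point a symbol, red where called higher, blue where called lower and grey where not called; black bars are list medians and the dotted line is the median of all symbols tested (0.03). The 5 cilium and centriole lists have medians of 1.59 to 2.50, and ribosome biogenesis and DNA replication lie at -1.01 and -1.07. With library size alone the medians of the ionocyte, goblet, oxidative phosphorylation and multiciliated-cell regulator lists change sign. The median of all symbols moves to -0.25 with that scaling.

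DNA replication genes fell while a few cell-cycle regulators rose against them. Of 86 replication and G1/S genes, 60 were called lower (69.8%) and 6 higher (6.98%), against 28.5 and 30.6% of all symbols. The median was -1.07, and the TPM share of the list went from 0.632 ± 0.0199% to 0.280 ± 0.0147%. The licensing factor cdc6 went from 40.5, 55.6 and 80.3 CPM to 5.49, 10.7 and 10.4 CPM (log2 fold change -2.72 ± 0.32, adjusted p = 0.00016). The helicase subunit mcm7 went from 851, 960.3 and 1015 CPM to 186, 254 and 204 CPM (log2 fold change -2.13 ± 0.15, adjusted p = 1.2e-05). All 3 libraries were lower at 6 h in both, and in the polymerase clamp pcna, which went from 61.3, 85.3 and 96.6 CPM to 13.4, 22.9 and 14.8 CPM (log2 fold change -2.25 ± 0.25, adjusted p = 0.00011). Cyclin E, ccne1, went from 353, 288 and 389 CPM to 64.4, 63.8 and 68.4 CPM. Against this, the pocket protein rbl2, which represses cell-cycle genes in quiescent cells, went from 5.60, 8.11 and 3.303 CPM to 133, 117 and 102 CPM (log2 fold change 4.33 ± 0.30, adjusted p = 1e-05). The helicase subunit gins3 went from 58.1, 59.1 and 59.8 CPM to 239.9, 180.4 and 262 CPM (log2 fold change 1.95 ± 0.16, adjusted p = 2e-05). The count of rises in the list was 3 without replicate 2 at 3 h.

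The phosphatase symbol cdc25a, an activator of cyclin-dependent kinases, rose from 64.8, 69.9 and 84.4 to 223, 179.7 and 247 CPM (log2 fold change 1.57 ± 0.16, adjusted p = 8e-05), but its 2 targets moved apart. CPM of uniquely assigned counts are scaled to the library's total of such counts without TMM, so they cannot be set against the symbol's CPM. On that scale 1 target went from 12.0, 9.12 and 5.65 to 288, 220.1 and 288, and the other from 94.2, 102 and 124 to 11.1, 24.0 and 26.9. Both were called when targets were tested singly, at log2 fold changes of 5.17 and -2.03 (adjusted p = 6.3e-06 and 0.00062). The symbol thus joined a rising and a falling target, a case singled out after its values were seen.

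Targets that share a symbol did not always move together. Of 4960 symbols with 2 tested targets, 1723 had both called in the same direction, 176 in opposite directions, 1751 had 1 called and 1310 neither. Such targets share a closest human gene and may be paired gene copies of this species or other relatives, and fragments shared between them couple their estimates. In 129 of the 176 pairs the CPM of uniquely assigned counts (unique CPM, without TMM) also separated the times in both targets. Both targets reached 10 unique CPM in 64 of these, and 20 of those changed at least 2-fold both ways. Other examples, chosen after their values were seen, were wdr5, frrs1 and cxcr4. A wdr5 target (a core subunit of histone methyltransferase complexes) went from 12.8, 15.8 and 12.36 to 90.8, 73.2 and 96.5 unique CPM and the other from 127, 114 and 108 to 30.9, 36.5 and 35.9, while their sum was not called (log2 fold change 0.17 ± 0.13). The frrs1 targets went from 48.0, 46.7 and 39.5 to 258, 236 and 268 and from 68.8, 62.4 and 79.2 to 11.9, 17.4 and 16.5. The chemokine receptor cxcr4 had targets at 133, 91.8 and 77.6 rising to 205, 206 and 266 and at 126, 98.3 and 95.5 falling to 12.7, 28.2 and 32.8.

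**Figure D4:**
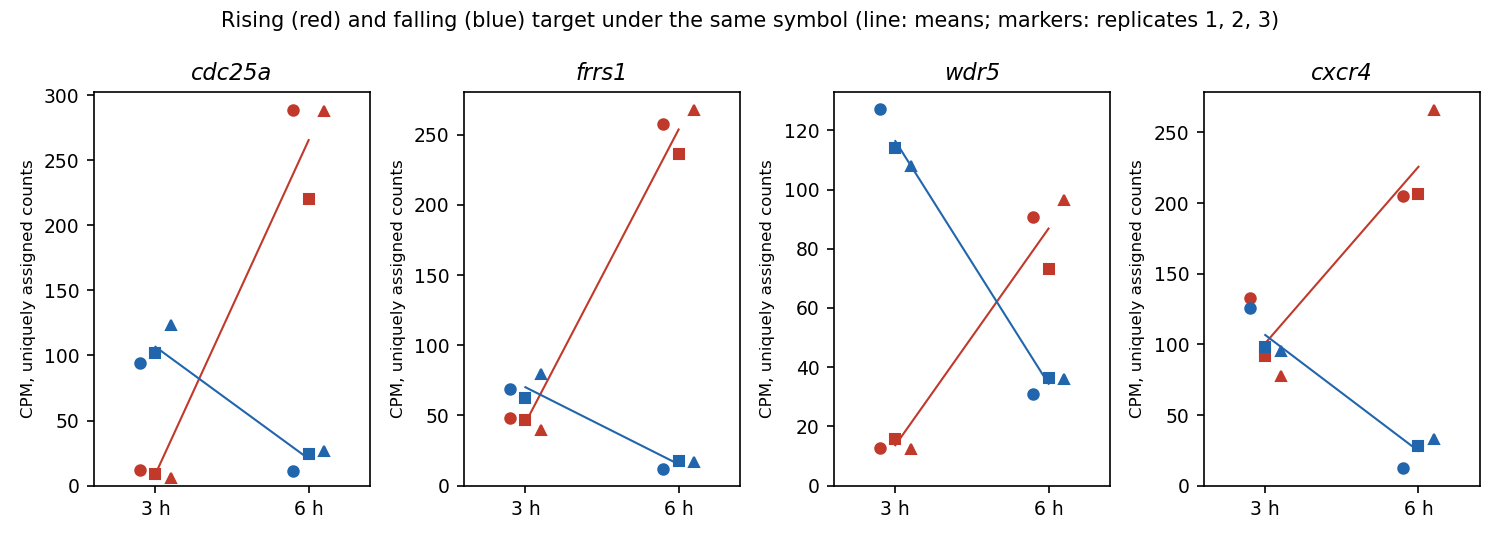
Uniquely assigned counts of the rising and the falling target of cdc25a, frrs1, wdr5 and cxcr4 in each library at 3 and 6 h. They are in CPM of the library's uniquely assigned counts, without TMM. In each panel 1 target is higher and the other lower in all 3 libraries at 6 h.

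Most mitotic genes fell, with exceptions among the core kinases. Of 92 mitosis and G2/M genes, 53 were called lower (57.6%) and 10 higher (10.9%), against 28.5 and 30.6% of all symbols, with a median of -0.70. Cyclin A, ccna2, went from 145, 123 and 162 CPM to 22.1, 20.4 and 22.7 CPM (log2 fold change -2.72 ± 0.15, adjusted p = 5.4e-06), topoisomerase top2a from 701, 562 and 613 CPM to 199, 206 and 204 CPM and the proliferation antigen mki67 from 278, 233 and 216 CPM to 73.0, 87.2 and 78.7 CPM. The mitotic kinase cdk1, its cyclin ccnb1 and the polo kinase plk1 did not pass, with log2 fold changes of 0.17 ± 0.20, 0.13 ± 0.15 and 0.04 ± 0.18, and their groups overlapped. The largest rises were in fbxo43, an inhibitor of the anaphase-promoting complex, from 35.4, 30.1 and 26.3 CPM to 152, 155 and 205 CPM (log2 fold change 2.47 ± 0.18, adjusted p = 1.2e-05), and in the centrosomal kinase nek2, from 264, 325 and 295 CPM to 739, 815 and 1057 CPM (log2 fold change 1.56 ± 0.16, adjusted p = 7.9e-05). The number of higher calls was 4 without replicate 2 at 3 h and 5 without replicate 3 at 6 h.

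Ribosome biogenesis factors fell and ribosomal protein transcripts rose slightly. Of 63 biogenesis genes, 56 were called lower (88.9%) and 0 higher, against 28.5 and 30.6% of all symbols. The median was -1.01. The nucleolar processing factor heatr1 went from 156, 182 and 197 CPM to 34.2, 43.4 and 32.8 CPM (log2 fold change -2.27 ± 0.16, adjusted p = 1.2e-05). The RNA polymerase I factor rrn3 went from 14.01, 15.9 and 18.1 CPM to 3.04, 4.20 and 3.80 CPM (log2 fold change -2.11 ± 0.20, adjusted p = 4.2e-05). The pseudouridine synthase dkc1 went from 558, 716 and 809 CPM to 193, 199 and 234 CPM (log2 fold change -1.73 ± 0.16, adjusted p = 4.6e-05). The abundant nucleolar gene npm1 was not called, at 1328, 1454 and 1894 CPM at 3 h and 1314, 1268 and 1561 CPM at 6 h, and was called lower with library size alone (adjusted p = 0.021). Of 75 cytosolic ribosomal proteins 54 were called higher and 0 lower, none by 2-fold, with a median of 0.53. The largest of these, rpl31, went from 104, 125 and 148 CPM to 213, 191 and 262 CPM (log2 fold change 0.82 ± 0.17, adjusted p = 0.0036). The number of calls for this small shift moved with the setting. With library size alone 9 were called (median 0.25, against -0.25 over all symbols). Without replicate 1 or 2 at 3 h 22 and 19 were called, and 25 without replicate 3 at 6 h. The number was 61 without replicate 3 at 3 h, 57 with DESeq2 and 75 with replicate number as a block. With both lists set per length, biogenesis genes went from 1.71 ± 0.122% to 0.906 ± 0.00755% of TPM, with no overlap, and ribosomal proteins from 4.69 ± 0.419% to 5.57 ± 0.541%. Among families grouped by name, 22 of 31 splicing factors (srsf, sf3 and snrp) and 28 of 70 mitochondrial ribosomal proteins were lower, against 28.5% of all symbols, and 1 and 3 were higher.

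**Figure D5:**
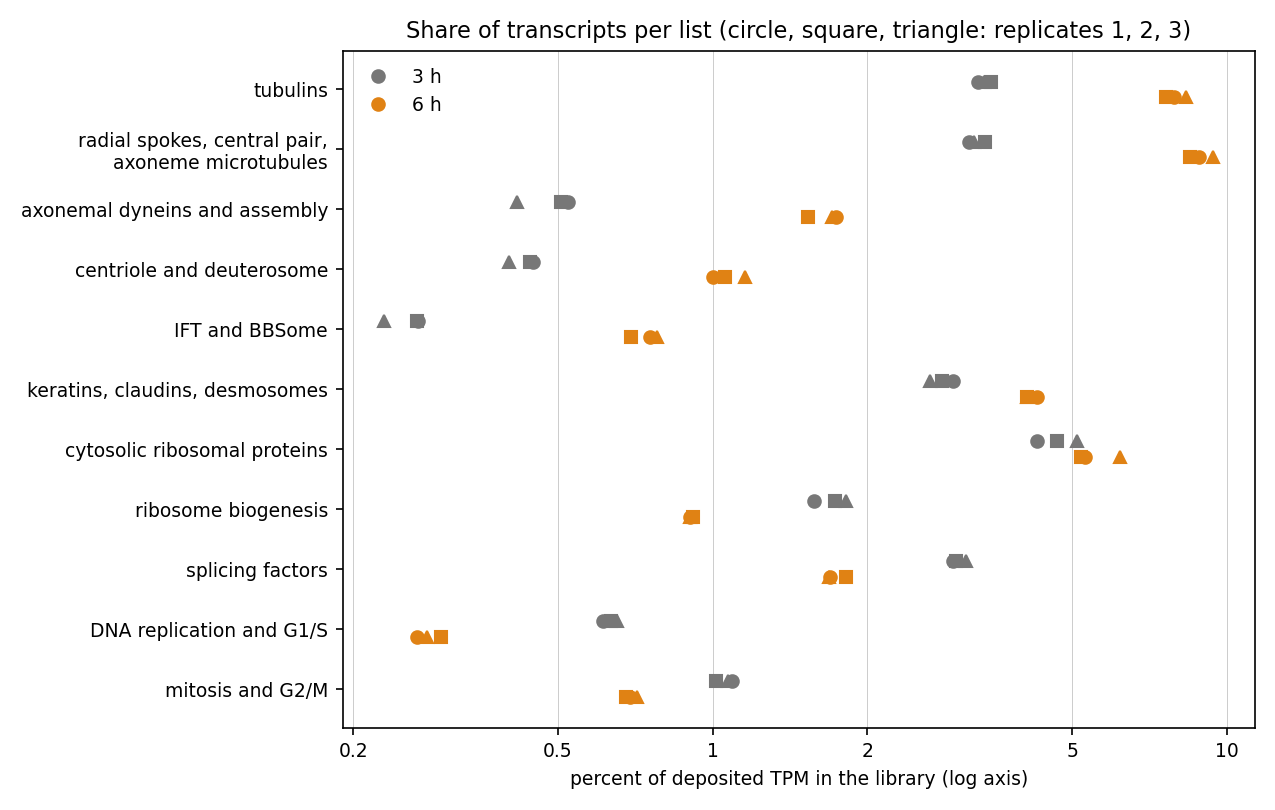
Percent of all deposited TPM held by each of 11 gene groups in each library (log axis), grey for 3 h and orange for 6 h; circle, square and triangle are replicates 1, 2 and 3. The 2 times separate in every group shown: the cilium, tubulin and keratin groups are higher at 6 h, the biogenesis, splicing and cell-cycle groups are lower, and the ribosomal proteins are closest, at 4.28 to 5.12% against 5.21 to 6.19%. The tubulin group and the radial spoke and axoneme list share tubulin symbols, so they are not separate groups.

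The oxidative phosphorylation list had few calls: 10 of 73 were called higher (13.7%) and 4 lower (5.48%), against 30.6 and 28.5% of all symbols. The median was 0.21. With library size alone 4 were higher and 13 lower, with a median of -0.07. That scaling moved the median of all symbols from 0.03 to -0.25, with 2565 higher and 4439 lower. With the block 27 were higher and 6 lower, and without replicate 2 at 3 h 5 were higher. The 4 lower were 1 without replicate 3 at 3 h and 2 without replicate 2 at 6 h. The exception in size was the complex I subunit ndufa8, from 18.7, 22.6 and 19.6 CPM to 63.3, 59.8 and 72.7 CPM (log2 fold change 1.68 ± 0.14, adjusted p = 2.6e-05).

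Many genes of the uncommitted ectoderm fell. Of 39 early progenitor and gastrula symbols, 23 were called lower (59.0%), 2 higher (5.13%) and 14 were not called, with a median of -0.87. Among all symbols tested 28.5% were lower and 30.6% higher. The progenitor gene sox3 was not called, at 118, 174 and 150 TPM at 3 h and 113, 113 and 117 TPM at 6 h. On this TPM scale, which the test did not use, every 6 h value lay below every 3 h value. The alternative fits gave sox3 log2 fold changes of -0.37 to 0.12, and it was not called in any. Without replicate 1 at 6 h, 4 symbols of the list were higher. The leucine-rich membrane protein lrrn1 went from 167, 214 and 239 CPM to 19.6, 30.4 and 23.1 CPM (log2 fold change -3.08 ± 0.21, adjusted p = 1e-05). The growth regulator myc went from 143, 162 and 201 CPM to 23.7, 49.6 and 43.3 CPM (log2 fold change -2.11 ± 0.27, adjusted p = 0.00023), and the ligand bmp7 from 467, 456 and 566 CPM to 109.7, 144 and 142 CPM (log2 fold change -1.91 ± 0.16, adjusted p = 2.1e-05). The non-neural ectoderm factors gata3 and tfap2a went from 212, 231 and 298 CPM to 27.5, 80.1 and 49.6 CPM and from 235, 224 and 314 CPM to 47.6, 72.1 and 72.6 CPM, with replicate 1 lowest at 6 h in both. The zinc finger gene sall1 went the other way, from 52.1, 65.1 and 57.5 CPM to 129, 131 and 146 CPM (log2 fold change 1.22 ± 0.13, adjusted p = 0.0001). Its 2 targets moved apart when tested singly, at 1.44 and -1.87 (adjusted p = 5.8e-05 and 0.00053). The falling target was scarce, at 2.27, 2.44 and 1.65 unique CPM at 3 h and 0.641, 0.612 and 0.470 at 6 h. Mesendoderm factors fell too: gata4 and gata6, zinc finger factors of heart and gut, went from 11.0, 10.6 and 12.6 CPM to 0.298, 0.7 and 0.551 CPM and from 25.8, 25.2 and 38.3 CPM to 1.07, 4.60 and 3.12 CPM. The mesoderm list held 0.0147 to 0.0171% of TPM at 3 h and 0.0158 to 0.0165% at 6 h. Of its 23 tested symbols 5 were called higher and 5 lower (21.7% each), and their part in the other results was not tested. Leaving out 1 of the 3 h libraries gave 3 higher, leaving out replicate 3 at 6 h gave 2 higher and 3 lower, and the block gave 8 higher. With uniquely assigned counts 1 was higher and 5 lower, and the median turned from 0.39 to -0.11. With library size alone 2 were higher and 6 lower. Of 5 endoderm symbols tested, 3 were lower and 0 higher, with 1 higher without replicate 2 at 3 h and 2 without replicate 3 at 3 h or replicate 1 at 6 h.

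Notch signalling, which sets the spacing of multiciliated cells, was mostly lower at 6 h. Of 22 genes 13 were called lower (59.1%) and 1 higher (4.55%), against 28.5 and 30.6% of all symbols, with a median of -0.78. The receptor notch1 went from 88.5, 119.9 and 111 CPM to 13.1, 28.3 and 17.0 CPM (log2 fold change -2.45 ± 0.28, adjusted p = 0.00012) and the ligand dll1 from 95.6, 109 and 120.0 CPM to 30.3, 35.4 and 34.0 CPM (log2 fold change -1.70 ± 0.14, adjusted p = 2e-05). The target genes hey1 and nrarp went from 23.2, 36.8 and 39.6 CPM to 1.85, 3.90 and 3.74 CPM and from 33.7, 45.0 and 53.5 CPM to 6.80, 9.05 and 8.33 CPM, with log2 fold changes of -3.38 ± 0.32 and -2.45 ± 0.21. The 6 h libraries lay below all 3 h libraries in these 4 genes. The exception was lfng, a glycosyltransferase that modifies Notch receptors, from 10.52, 18.3 and 10.1 CPM to 33.6, 30.3 and 23.2 CPM (log2 fold change 1.16 ± 0.26, adjusted p = 0.0051).

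For ionocytes, the cells that move acid and salt, 10 of 31 symbols were called higher (32.3%) and 5 lower (16.1%), against 30.6 and 28.5% of all symbols. The median was 0.14, and -0.14 with library size alone (-0.25 over all symbols), where 7 were higher and 8 lower. The forkhead regulator foxi1, a sum of 8 targets, went from 441, 523 and 606 CPM to 82.0, 145 and 117 CPM (log2 fold change -2.19 ± 0.22, adjusted p = 6.6e-05), and just missed the threshold in the 16-library fit (adjusted p = 0.0502). The proton pump subunit atp6v1b1 went from 3.75, 3.78 and 1.84 CPM to 13.1, 32.5 and 15.5 CPM (log2 fold change 2.67 ± 0.40, adjusted p = 0.00062), and the anion exchanger slc26a4 from 3.31, 7.64 and 5.68 CPM to 13.7, 47.0 and 18.5 CPM (log2 fold change 2.25 ± 0.49, adjusted p = 0.0045), with replicate 2 highest in both at 6 h. Without that library 6 ionocyte symbols were higher. Carbonic anhydrase ca2 went from 18.8, 8.15 and 5.68 CPM to 161, 59.9 and 48.3 CPM (log2 fold change 3.02 ± 0.62, adjusted p = 0.0051), with replicate 1 highest at both times.

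In goblet and outer layer cells, which coat the epidermis with mucus, 13 of 30 symbols were called higher (43.3%) and 7 lower (23.3%), against 30.6 and 28.5% of all symbols. The median was 0.09, and -0.20 with library size alone (-0.25 over all symbols), where 8 were higher and 11 lower. Without a single library 9 to 11 were higher and 5 to 8 lower. The mucin muc4 went from 79.8, 51.5 and 41.4 CPM to 752, 725 and 574 CPM (log2 fold change 3.57 ± 0.26, adjusted p = 1.2e-05). The lectin itln1 went from 53.4, 103 and 70.4 CPM to 366, 425 and 362 CPM (log2 fold change 2.35 ± 0.23, adjusted p = 5.8e-05). The groups were well apart in both, and in the mucin-glycosylating enzyme galnt4, from 58.5, 42.3 and 42.1 CPM to 347, 257 and 331 CPM (log2 fold change 2.71 ± 0.19, adjusted p = 1.1e-05). The gel protein otog, already abundant, went from 2338, 1988 and 1649 CPM to 5271, 4374 and 3231 CPM (log2 fold change 1.11 ± 0.20, adjusted p = 0.0016). The hyaluronan synthase has1 went from 6257, 8251 and 8683 CPM to 1608, 3025 and 2628 CPM (log2 fold change -1.68 ± 0.24, adjusted p = 0.00043). Of 10 small secretory cell symbols 5 were higher and 2 lower, and 1 lower without replicate 2 at 3 h or replicate 1 or 2 at 6 h. The monoamine transporter slc18a2 rose from 26.9, 28.03 and 32.7 CPM to 96.2, 76.3 and 89.0 CPM, a call lost in the 16-library fit (adjusted p = 0.24). The serotonin-making enzyme tph1 fell from 1.38, 0.585 and 1.997 CPM to 0.119, 0.15 and 0.0613 CPM. Basal cell and matrix genes had 0 of 8 higher and 3 lower, with 1 higher without replicate 3 at 6 h.

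Adhesion and skeleton genes of the epithelium gave 18 of 37 higher (48.6%) and 7 lower (18.9%), against 30.6 and 28.5% of all symbols. The median was 0.32 (0.04 with library size alone). The desmosomal cadherin dsc2 went from 32.6, 46.2 and 27.0 CPM to 216, 173 and 145 CPM (log2 fold change 2.33 ± 0.23, adjusted p = 5.9e-05) and the claudin cldn1 from 4.002, 6.82 and 5.15 CPM to 11.5, 38.4 and 22.7 CPM (log2 fold change 2.18 ± 0.42, adjusted p = 0.0021). The adherens junction and Wnt protein gene ctnnb1 went from 2174, 1888 and 1678 CPM to 799, 941 and 795 CPM (log2 fold change -1.18 ± 0.14, adjusted p = 0.00015). The number of lower calls was 4 without replicate 1 at 6 h.

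Neural genes had 7 of 25 higher (28%) and 8 lower (32%), near the 30.6 and 28.5% of all symbols. The TPM share of the 46 listed neural symbols nevertheless went from 0.306 ± 0.0462% to 0.751 ± 0.0711%, without overlap between the times. The gene syt1, called higher, went from 248, 209 and 184 TPM to 604, 533 and 560 TPM. The eye-field factor six3 went from 5.79, 11.5 and 4.84 CPM to 25.1, 35.2 and 49.0 CPM, while the neural factor sox1 went from 11.7, 21.6 and 21.2 CPM to 3.64, 3.35 and 4.04 CPM. Of 13 neural crest genes 4 were higher and 4 lower (30.8% each), also near those shares, and 2 were lower without replicate 2 at 3 h or replicate 3 at 6 h. Of 38 stress and apoptosis genes 8 were higher (21.1%) and 15 lower (39.5%), with a median of -0.25. The list thus leaned lower. The rises included the chaperones hsp90aa1, from 40.5, 24.9 and 15.8 CPM to 175, 65.9 and 87.7 CPM, and dnajb1, from 3.02, 2.57 and 0.768 CPM to 17.6, 9.102 and 4.72 CPM. Replicate 1 was highest at both times in both. Among 11 dexamethasone-responsive genes, 3 were higher (27.3%) and 4 lower (36.4%), and 0 and 7 with library size alone. Without replicate 2 at 3 h 1 was higher, and without replicate 1 at 6 h 1 was higher and 7 lower. All caps had the hormone, so its effect and that of time cannot be told apart. The liver enzyme tat, a classic glucocorticoid target, went from 6.00, 6.43 and 10.3 CPM to 0.656, 0.95 and 0.613 CPM. Of 23 housekeeping genes 3 were higher (13.0%) and 9 lower (39.1%), with a median of -0.29. With library size alone 0 were higher and 15 lower, with a median of -0.57. The rises were 0 without replicate 2 at 3 h and 1 without replicate 1 or 3 at 3 h or replicate 2 or 3 at 6 h. Of 5 immune cell symbols 2 were higher and 0 lower (0 and 1 with uniquely assigned counts), with 1 higher without replicate 1 or 2 at 3 h or replicate 2 or 3 at 6 h.

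The same interval was compared with caps that also carried RNA for a dominant-negative E2f4 (dnE2f4) in a fit of 11 libraries. The difference in the change between the conditions passed for 2 of 12060 symbols (0.0166%), rttn and pou2f3, with 541 at an unadjusted p under 0.05 (edgeR interaction test). DESeq2 called 22, and the fit with replicate number as a block called 76. The centriole elongation gene rttn rose from 15.2 ± 1.31 to 103 ± 9.72 CPM without dnE2f4 (mean ± SD, n = 3) and stood at 6.52 ± 1.04 CPM (n = 2) and 12.18 ± 0.451 CPM (n = 3) with it, a difference in log2 change of 1.87 ± 0.20 (adjusted p = 0.016). Beside these, the list medians without and with dnE2f4 were 1.59 and 1.22 for centriole genes, 2.26 and 2.30 for axonemal dyneins and -1.07 and -1.06 for DNA replication, as a description with no test. Without a single library 0 to 1 symbols were called, and rttn passed without replicate 1 at 6 h or replicate 3 of dnE2f4 at 3 h and not without any other. The median SE of the difference was 0.308, and 2 calls do not show that the other symbols changed alike.

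E2f4 binding, measured by ChIP-seq of E2f4-GFP in caps at 6 h, was looked up near the starts of the called symbols. In the authors' pooled set with Multicilin (12778 peaks), 33.6% of symbols that rose, 38.6% of those that fell and 29.4% of those not called had a peak centre within 1000 bases of a target's start. In the pooled set of E2f4-GFP alone (15693 peaks) the shares were 40.0, 52.5 and 41.4%. Over all symbols tested they were 33.3% with Multicilin and 44.1% without. Both sets are named for 2 replicates together, so these shares have no replicate test, and levels differed between the classes, with medians at 3 h of 14.9, 34.7 and 11.6 CPM. Peaks were near 71.4% of centriole genes with Multicilin and 81.4% without, and near 68.6 and 80.2% of replication and G1/S genes, groups whose calls ran in opposite directions. The radial spoke and axoneme list had 40.6% with Multicilin and 26.1% without, and the mesoderm list 0 and 8.70%. Of the 10 steep risers from near silence 0 had a peak in the Multicilin set, against 4 of the 15 largest rises, 2 of the 15 largest falls and 8 each of the 10 largest TPM gains and losses. In the set of E2f4-GFP alone the counts were 1, 3, 6, 8 and 8 in the same order. A symbol with more targets has more starts that can lie near a peak. The steep risers joined 1 or 2 targets each, the TPM gains 1 to 7 and the TPM losses 1 to 6. These counts were not corrected for that.

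At 9 h, in the libraries labelled replicates 1 and 3 (the library labelled replicate 2 carried e2f4 levels opposite to its label and is left out), single genes are given beside their 6 h means in TPM, without a test. The dynein gene dnah6 stood at 65.1 at 6 h and 209.9 and 144 at 9 h, rbl2 at 41.7 and 161 and 124, and muc4 at 260.3 and 726 and 586. The deuterosome gene ccdc67 stood at 226 and 204 and 246, within the range of its 6 h libraries. The fallen genes lrwd1 and pou5f1 stood at 3.76 and 27.7 at 6 h and at 0.659 and 1.19 and 14.5 and 13.2 at 9 h.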

How the data were processed

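Per the submitters' processing notes STAR, eXpress, DESeq, Bowtie2, Bowtie and HOMER were used, with roles and versions not given in the sources used here. The deposited estimated counts (expected counts) are those of eXpress, which shares fragments among targets, per the file headers, and no normalization had been applied. The uniquely assigned counts and TPM were deposited in the same tables. The deposited peak sets were called by the authors with HOMER on pooled replicates with the header giving 0.001 as the false discovery rate and 4 as the fold over input, and their deposited score column was not used. Target positions are on JGIv7b scaffolds, and no sequence was used.

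Estimated counts of the 6 libraries were summed by symbol (13995 rows with 523 unnamed targets), rounded, filtered with filterByExpr, TMM-scaled, and compared by the robust quasi-likelihood test of edgeR 4.0.16 in R 4.3.3, with Benjamini-Hochberg adjustment over 11562 rows. DESeq2 1.42.0 was the alternative tool. Each TPM value is the sum of deposited values. Unnamed targets held 1.95 to 2.28% of fragments. The library kit keeps no strand, so overlapping genes cannot be told apart.

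The members, lists and tests were chosen with earlier results of these data known, and the name families after the levels had been seen. Named symbols are the 15 largest called rises and falls without overlap (at least 10 CPM at the higher and 1 CPM at the lower time), the 10 highest rises from under 0.5 CPM, the 10 largest TPM gains and losses, and examples of each list. A few symbols that the rule picks are not reported here.

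Deviations of libraries with the same number correlated between the times at 0.60, 0.40 and 0.50, against -0.49 to 0.11 for different numbers. Libraries with the same number thus deviated together, though what a number stands for is not stated. The main fits left this pairing out. With replicate number as a block 8220 symbols were called in place of 6823, and 76 in place of 2 in the interaction. Replicate pairs differed by more than sampling noise (chi-square per degree of freedom of at least 19.7). Tested on simulated data of 11410 symbols, the 6 h against 3 h fit recovered 94.0, 61.2 and 15.2% of 4-, 2- and 1.5-fold changes and called 6 unchanged symbols. Only a small part of the simulated symbols was changed, and replicates were not paired. In the data 59.0% of symbols were called, so these rates need not hold there. The median SE was 0.196.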

Additional observations from a re-analysis of the deposited data

Results flagged for a closer look

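For 2 symbols the change from 3 to 6 h differed between caps without and with dnE2f4 in the interaction test. The POU-domain factor pou2f3 fell from 49.3 ± 1.92 to 18.7 ± 3.05 CPM without dnE2f4 (n = 3 and 3, log2 fold change -1.40) and rose from 35.9 ± 5.39 (n = 2) to 56.5 ± 11.2 CPM (n = 3) with it (0.65), a difference of -2.05 ± 0.26 (adjusted p = 0.039). The centriole gene rttn rose by 2.76 without and 0.89 with dnE2f4, a difference of 1.87 ± 0.20 (adjusted p = 0.016). Leaving out any 1 of the 11 libraries took pou2f3 over the threshold, with adjusted p of 0.051 to 0.61, and left the differences at -2.21 to -1.89. For rttn it did so for all but replicate 1 of the 6 h group without dnE2f4 and replicate 3 of the 3 h group with dnE2f4, with adjusted p of 0.028 to 0.25 and differences of 1.69 to 2.02. The 3 h group with dnE2f4 had 2 libraries, since replicate 1 was scored on another target set. With that library added the adjusted p were 0.020 for pou2f3 and 0.0072 for rttn. No group has more than 3 libraries, so no library was tested for standing apart within its group.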

How the results depend on the processing

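The number of symbols called stayed within 1.5 times 6823 under every alternative run: 5719 with 16 RNA libraries by symbol, 6357 with uniquely assigned counts. Without a single library the counts were 5744 to 6582 (2877 to 3371 higher and 2849 to 3261 lower). With replicate number as a block 8220 were called, and 6819 of the 6823 were among them in the same direction. Single targets gave 10045 of 18098. Of 187 called symbols checked singly, 166 were called in the same direction under every alternative and 0 reversed; by their most abundant target 2 uncalled symbols turned, hes5 to 0.58 and wdr5 to -1.45.

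The interaction count of 2 was 76 with the block, 22 with DESeq2 and 0 to 1 without a single library. Why that count moved was not tested. A wider window contains the narrower windows, so peak shares for higher, lower and uncalled symbols rose with it. Within 200 bases they were 24.7, 27.7 and 20.7% with Multicilin and 30.3, 40.7 and 31.9% without. Within 5000 bases they were 40.7, 44.0 and 35.6% with Multicilin and 47.2, 59.8 and 48.1% without. The order of the classes within each peak set was the same at every window. At these depths folds of symbols under about 1 CPM are imprecise.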

Other observations

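Families grouped by name after the levels had been seen and not described above included kinesins, Rab proteins and transcription factors. Over all symbols tested 30.6% were higher and 28.5% lower. Of 32 kinesins 13 were called higher (40.6%) and 12 lower (37.5%). The rises included kif6 and kif9, kinesins of motile cilia, from 6.88, 4.41 and 3.99 CPM to 68.5, 59.8 and 53.0 CPM and from 37.5, 32.0 and 26.0 CPM to 217, 179 and 192 CPM, and the intraflagellar motor kif3a, from 33.1, 33.5 and 23.1 CPM to 165, 165 and 139 CPM. The falls included the mitotic kinesins kif18a, from 18.8, 17.5 and 13.9 CPM to 7.46, 5.95 and 4.23 CPM, and kif23, from 136, 123 and 127 CPM to 59.6, 50.1 and 41.1 CPM. Of 107 coiled-coil-domain (ccdc) symbols 66 were higher and 13 lower, with a median log2 fold change of 1.43. Of 54 Rab symbols 25 were higher and 4 lower, with rab28, a ciliary GTPase, going from 2.44, 4.02 and 3.76 CPM to 47.3, 44.0 and 58.6 CPM (log2 fold change 3.88 ± 0.23, adjusted p = 6.7e-06).

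Among 8 tested hox symbols, which set position along the body axis, 4 were higher (50%) and 2 lower (25%). The anterior gene hoxa3 went from 0.327, 0.195 and 0 CPM to 13.0, 11.5 and 9.80 CPM. Of 13 sox factors 4 were higher (30.8%) and 7 lower (53.8%), with sox21 going from 6.37, 8.46 and 5.30 CPM to 44.6, 56.3 and 46.2 CPM and sox4 from 76.7, 96.5 and 104 CPM to 25.2, 25.6 and 24.7 CPM. Of 226 solute carriers 86 were higher (38.1%) and 47 lower (20.8%), and of 35 proteasome subunits 4 (11.4%) and 2 (5.71%). These shares stand against 30.6% higher and 28.5% lower among all symbols tested.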
